A study of Mus musculus with 96 samples.

Results

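The genes described here are Ly6a, Ly6c1, Ly6c2 and Ly6e, 4 of the 23955 genes in the deposited expression table. They were followed across 96 single cells. They were named as a set because Ly6c2, Ly6a and Ly6c1 had ranked high in an earlier correlation with Gfi1 over the same cells, and Ly6e was added by family. Their mutual likeness and their pattern over the cells are therefore given as a description, with no test. The question was whether Ly6a and Ly6c1 carry a signal of their own or follow Ly6c2.

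All cells were of the ThPOK-/- genotype (a knockout of Zbtb7b, which encodes the transcription factor ThPOK) and were taken from C57BL/6 marrow. CD117 beads and then a cell sort gave granulocyte-monocyte progenitors (GMP, the bone marrow cells that give rise to neutrophils and monocytes), which were loaded on the Fluidigm C1, a device that isolates single cells, for SMARTer cDNA synthesis and Nextera XT library construction. No animal, deleted exon or sorting antibody is named and wild-type cells were not analysed here, so the 96 cells were 1 sample and no p-value was computed. The authors' deposited annotation names a state for 69 cells, Multi-Lin-1 (26 cells), IG2 (31 cells) or proNeu-1 (12 cells), and gives none for the other 27. No source used here says how those states were assigned.

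Ly6 genes encode small, disulphide-rich proteins with a three-finger fold, most of them held on the cell surface by a glycosylphosphatidylinositol (GPI) lipid anchor. Ly6c2 and Ly6c1 encode the Ly6C antigens, which are used to sort monocytes and maturing granulocyte cells. Ly6a encodes Sca-1, a marker of mouse stem and multipotent progenitor cells that interferon raises in many cell types, and GMP are by convention sorted as cells with little Sca-1. Ly6e is a widely expressed relative that is also induced by interferon and binds syncytin in the placenta.

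The Ly6c1 and Ly6c2 coding sequences are near copies, which bears on how reads can be divided between them. In GENCODE M21 (GRCm38), Ly6c2 (ENSMUSG00000022584) lies at chr15:75108158-75111970, Ly6c1 (ENSMUSG00000079018) at chr15:75044018-75048830 and Ly6a (ENSMUSG00000075602) at chr15:74994877-74998031, all on the minus strand. Ly6e (ENSMUSG00000022587) lies at chr15:74955051-74959905 on the plus strand. The coding sequences of Ly6c2, Ly6c1 and Ly6a, from the start codon to base 290 of Ly6c2, are shown to compare them base by base, with every base that differs from Ly6c2 in capitals.
Ly6c2: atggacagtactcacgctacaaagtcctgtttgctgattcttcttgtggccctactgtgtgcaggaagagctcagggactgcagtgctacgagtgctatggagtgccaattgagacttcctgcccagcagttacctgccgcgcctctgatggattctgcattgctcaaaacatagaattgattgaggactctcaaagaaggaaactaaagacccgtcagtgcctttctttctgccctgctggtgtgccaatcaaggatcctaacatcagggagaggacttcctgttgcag
Ly6c1: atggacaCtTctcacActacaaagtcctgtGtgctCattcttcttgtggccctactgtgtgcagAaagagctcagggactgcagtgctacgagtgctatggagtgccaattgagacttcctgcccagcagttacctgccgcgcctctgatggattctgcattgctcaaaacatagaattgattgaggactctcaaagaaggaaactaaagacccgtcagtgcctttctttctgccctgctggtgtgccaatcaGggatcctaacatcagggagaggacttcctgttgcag
Ly6a: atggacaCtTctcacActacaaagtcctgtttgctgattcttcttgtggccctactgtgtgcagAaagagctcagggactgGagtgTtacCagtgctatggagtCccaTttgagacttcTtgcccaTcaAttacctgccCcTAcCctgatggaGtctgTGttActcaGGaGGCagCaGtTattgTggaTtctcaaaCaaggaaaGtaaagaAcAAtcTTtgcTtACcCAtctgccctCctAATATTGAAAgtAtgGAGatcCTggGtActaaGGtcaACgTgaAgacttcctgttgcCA
Over the whole coding sequence Ly6c1 differed from Ly6c2 at 9 of 396 bases, 7 of them in the stretch shown, a 97.7% identity. The coding part of exon 2 held 6 of the differences, the 117 bases of exon 3 held 0 and exon 4 held 3. Ly6a was 81.7% identical to Ly6c2, with 4 differences in exon 2, 25 in exon 3 and 45 in exon 4, extra bases included. At all 4 of its exon 2 differences, Ly6a had the same base as Ly6c1. Ly6e was no more than 50% identical in coding sequence to any of the other 3 members.

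**Figure D1:**
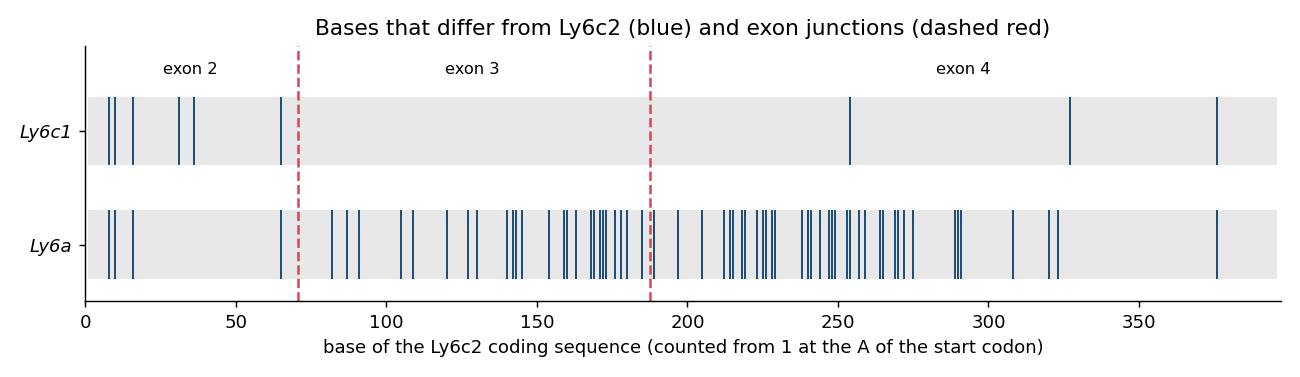
Bases of the Ly6c1 and Ly6a coding sequences that differ from Ly6c2 (blue lines), along the Ly6c2 coding sequence (x axis, base counted from the start codon), with the exon junctions as dashed lines. Ly6c1 has 9 differences and none in exon 3, whereas those of Ly6a run through exons 3 and 4.

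A single run of 188 bases was identical in Ly6c1 and Ly6c2 and spanned both coding junctions. It reached 5 bases before and 183 after the junction of exons 2 and 3, and 122 before and 66 after the junction of exons 3 and 4. Of the 50-base words in the main Ly6c2 transcript, 32.6% also occurred in the main Ly6c1 transcript and 0.388% in that of Ly6a. Of those in the main Ly6e transcript, 0% occurred in any of the other 3. Over all protein-coding transcripts, 15.03% of the 50-base words of Ly6a occurred in Ly6c1. The read length and the annotation behind the expression table are not given in the sources used here, so these shares describe the genes and not the reads.

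The promoters of the pair were less alike than their coding exons. RefSeq windows (GRCm38.p6) of 250 bases before the start were matched for 2 of the 4 members, Ly6c2 at chr15:75111972-75112221 and Ly6c1 at chr15:75048838-75049087, both on the minus strand. They are shown because the genes were found in the same cells, with the bases that differ within the aligned stretch in capitals.
Ly6c2 promoter: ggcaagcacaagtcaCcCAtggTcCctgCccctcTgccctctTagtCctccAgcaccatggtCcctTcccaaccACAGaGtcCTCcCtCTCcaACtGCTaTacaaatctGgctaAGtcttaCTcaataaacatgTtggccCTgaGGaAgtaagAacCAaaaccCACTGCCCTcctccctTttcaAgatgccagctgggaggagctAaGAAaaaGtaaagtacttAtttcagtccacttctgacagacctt
Ly6c1 promoter: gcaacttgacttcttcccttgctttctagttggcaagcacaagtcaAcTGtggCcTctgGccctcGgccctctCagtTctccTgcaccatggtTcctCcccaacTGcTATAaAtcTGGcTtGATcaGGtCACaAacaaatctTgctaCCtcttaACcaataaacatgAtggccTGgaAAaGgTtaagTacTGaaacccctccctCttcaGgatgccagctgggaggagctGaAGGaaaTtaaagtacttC
Over the 228 aligned columns 71.9% were identical. A set of short motifs were searched on both strands: the interferon-stimulated element GAAANNGAA (in 7.13% of 32851 windows of the same length), the STAT site TTCNNNGAA (7.02%), the C/EBP site TTGCNNAA (9.56%), the PU.1 site GAGGAAGT (2.44%) and the GFI1 site AATCAC (9.14%). Neither window held any of them except for 1 match to GAGGAAGT in Ly6c2.

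Before the members, the cells were checked against their labels. Zbtb7b, the targeted gene, was found, meaning at or above 1 on the TPM scale (a length-adjusted share of the transcripts of a cell), in 2 of 96 cells, with a highest log2(TPM + 1) of 1.64, but with no wild-type cells and no deleted exon named this says nothing about the knockout. All 7 primary granule and GMP markers were found in more than 50% of the cells, among them Mpo (myeloperoxidase) in 96 and Elane (neutrophil elastase) in 92. Markers of other cell types were mixed. Of those for T and NK cells, Cd3e and Cd3g were found in 0 cells, Lck in 5, Cd3d in 8 and Nkg7, a granule protein of cytotoxic cells, in 93. Of those for B cells, Cd79a and Ms4a1 were found in 0 and Cd79b in 25. Of those for endothelium and stroma, Cdh5 and Cxcl12 were found in 0, Pecam1 in 30 and Lepr, the leptin receptor, in 88. Nkg7 had a Spearman rho of 0.54 with Ly6c2, 0.49 with Ly6a and 0.51 with Ly6c1 over the 96 cells, and its part in their levels was not tested. Depth is unknown, and the median number of genes at or above a TPM of 1, used in its place, was 2950 in Multi-Lin-1, 3940 in IG2, 4127.5 in proNeu-1 and 2613 among the cells with no state. Because Tbp, a transcription factor that all cells need, was itself under a TPM of 1 in most cells, a value of 0 means only that a gene is listed at 0.

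Ly6c2 differed most between the states. It was found in 42 of 96 cells (43.8%, exact Clopper-Pearson interval 33.6 to 54.3%, which like all intervals here covers the counting of cells alone). On the log2(TPM + 1) scale, the level in Multi-Lin-1 had a lowest value of 0, a median of 0 and a highest of 3.84. In IG2 the lowest, median and highest levels were 0, 1.54 and 11.81, and in proNeu-1 they were 6.39, 11.38 and 12.49. The 12 proNeu-1 cells all lay above the 26 Multi-Lin-1 cells, whereas 14 of the 31 IG2 cells lay inside the proNeu-1 range and the other 17 below it. Of the 27 cells without a state, 4 had Ly6c2, the highest at 10.31.

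The levels of Ly6c2 fell into 2 ranges with nothing between 3.84 and 6.37. In the upper range were 28 cells, 14 of IG2, 12 of proNeu-1 and 2 without a state. In the lower range were 14 cells, 8 of Multi-Lin-1, 4 of IG2 and 2 without a state. The 14 low values stopped at a TPM of 13.4, and only 1 of them exceeded a TPM of 5.

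**Figure D2:**
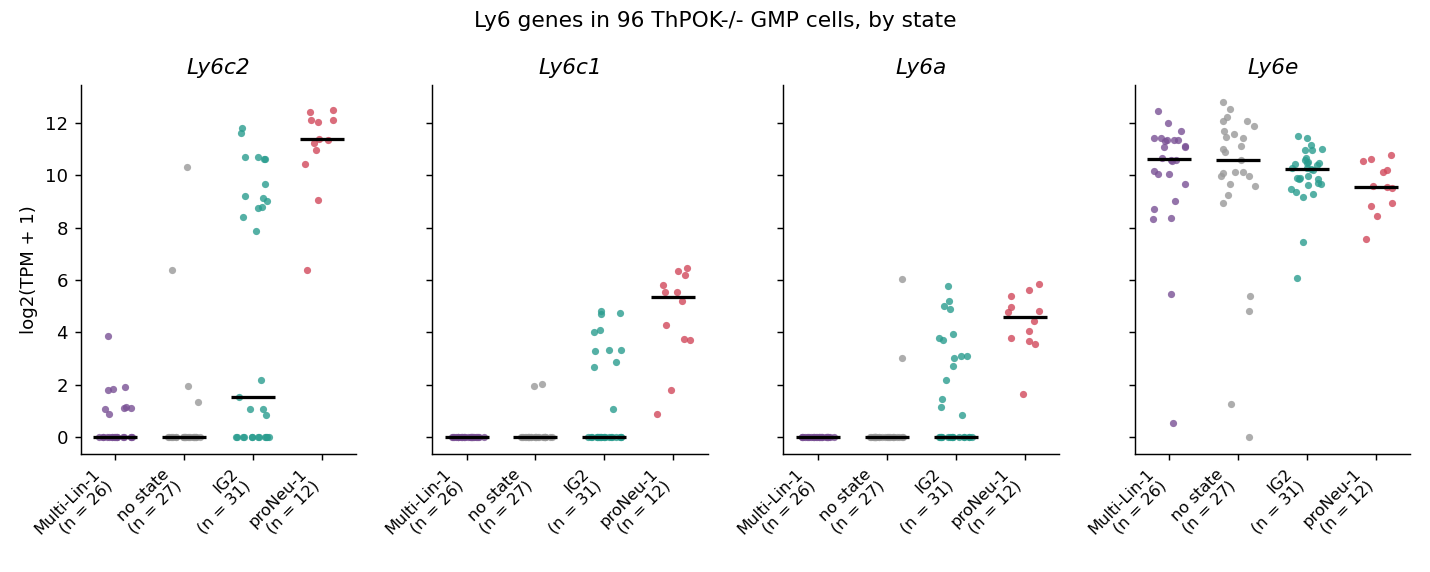
Level of each Ly6 gene, as log2(TPM + 1), in every cell (points) by state, with the median as a black line. Ly6c2, Ly6c1 and Ly6a have medians of 11.38, 5.36 and 4.59 in proNeu-1 and of 0 in Multi-Lin-1, while the Ly6e medians lie between 9.56 and 10.64 in all 4 groups.

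Ly6c1, the near copy, was found in 24 of 96 cells (25%, interval 16.7 to 34.9%). It was found in 0 of 26 Multi-Lin-1 cells (interval 0 to 13.2%). Cells with Ly6c1 numbered 11 of 31 in IG2, 11 of 12 in proNeu-1 and 2 of 27 without a state. Its lowest, median and highest log2(TPM + 1) levels were 0, 0 and 4.80 in IG2 and 0.89, 5.36 and 6.45 in proNeu-1, and the highest without a state was 2.02. It passed a TPM of 30 in 7 cells, all of proNeu-1.

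Ly6a, the Sca-1 gene, was found in 28 of 96 cells (29.2%, interval 20.3 to 39.3%). The count was 0 of 26 in Multi-Lin-1 (interval 0 to 13.2%), 14 of 31 in IG2, 12 of 12 in proNeu-1 and 2 of 27 without a state. Its lowest, median and highest log2(TPM + 1) levels were 0, 0 and 5.77 in IG2 and 1.63, 4.59 and 5.84 in proNeu-1. The single highest value, 6.05, was in a cell without a state.

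Ly6e was found in nearly all cells and at high levels in all 4 groups. The count was 94 of 96 cells (97.9%, interval 92.7 to 99.7%). On the log2(TPM + 1) scale its lowest, median and highest levels were 0.52, 10.64 and 12.45 in Multi-Lin-1, 6.09, 10.23 and 11.50 in IG2, 7.56, 9.56 and 10.77 in proNeu-1, and 0, 10.58 and 12.82 in cells without a state. The medians ran from Multi-Lin-1 through no state and IG2 down to proNeu-1, but all 31 IG2 cells lay inside the Multi-Lin-1 range and neighbouring groups overlapped throughout. In TPM, which is per transcript length, Ly6e exceeded Ly6c2 in all 26 Multi-Lin-1 cells, whereas Ly6c2 was higher than Ly6e in 7 of 31 IG2 cells and 9 of 12 proNeu-1 cells. In every cell that had both, Ly6c2 was higher than Ly6c1 (24 cells) and higher than Ly6a (26 cells), and Ly6c1 was higher than Ly6a in 12 of 23.

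Differences of mean log2(TPM + 1) between states put the 4 members side by side with all 8044 genes found in at least 10% of cells, a filter that all 4 passed. From Multi-Lin-1 to IG2, 3 of the 4 members were higher by 1 or more, beside 31.1% of all genes, with 4.07 for Ly6c2, 1.61 for Ly6a, 1.25 for Ly6c1 and 0.01 for Ly6e against a median of 0.53. The share of all genes lower by 1 or more was 2.54%, and no member was among them. From IG2 to proNeu-1 the same 3 members were higher by 1 or more, beside 13.6% of all genes, with 6.37 for Ly6c2, 3.37 for Ly6c1 and 2.77 for Ly6a. Ly6c2 ranked 1st of the 8044 genes in that difference, Ly6c1 18th and Ly6a 54th. The states may themselves rest on the same expression values, so these ranks cannot be taken as independent of how the states were assigned. Ly6e was lower by 0.47, short of the difference of 1 that 10.2% of genes passed downward. Cells without a state differed from Multi-Lin-1 by less than 1 in all 4 members, beside 5.21% of genes higher and 12% lower. With a pseudocount of 10 the difference from Multi-Lin-1 to IG2 was 0.53 for Ly6a and 0.40 for Ly6c1, under the 1 used as a call.

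Other gene groups differed between the same states. The summed log2(TPM + 1) of the 7 primary granule and GMP markers had a median of 39.01 (range 9.66 to 64.1) in Multi-Lin-1, 71.3 (60.7 to 80.97) in IG2, 71.9 (66.01 to 80.2) in proNeu-1 and 32.6 (3.38 to 58.6) without a state. The 7 neutrophil markers in the table had summed medians of 0, 2.64, 12.95 and 0 in the same order, with ranges reaching 16.25, 17.4, 28.6 and 13.8. The summed medians of Multi-Lin-1 and IG2 do not stand for each marker, and only 3 of the 7 were found in at least 10% of cells. Between these states the difference of mean log2(TPM + 1) was 2.92 for Cebpe, but -1.04 for S100a8 and -1.45 for S100a9. Ltf and Camp, which mark later granules, were found in 0 cells. The 6 erythroid markers had summed medians of 10.7, 1.17, 3.14 and 17.2, lower in IG2 and proNeu-1 than in the other 2 groups, with ranges reaching 28.4, 19.7, 7.36 and 44.3. The sums of the primary granule and GMP markers do not stand for each marker either. From IG2 to proNeu-1 the difference of mean log2(TPM + 1) was 1.59 for Elane, 1.23 for Ms4a3 and 1.21 for Prtn3, but -3.93 for Cd34. The other markers of that list differed by less than 1. The part of these programmes, and of the depth given above, in the levels of Ly6c2, Ly6c1 and Ly6a was not tested.

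**Figure D3:**
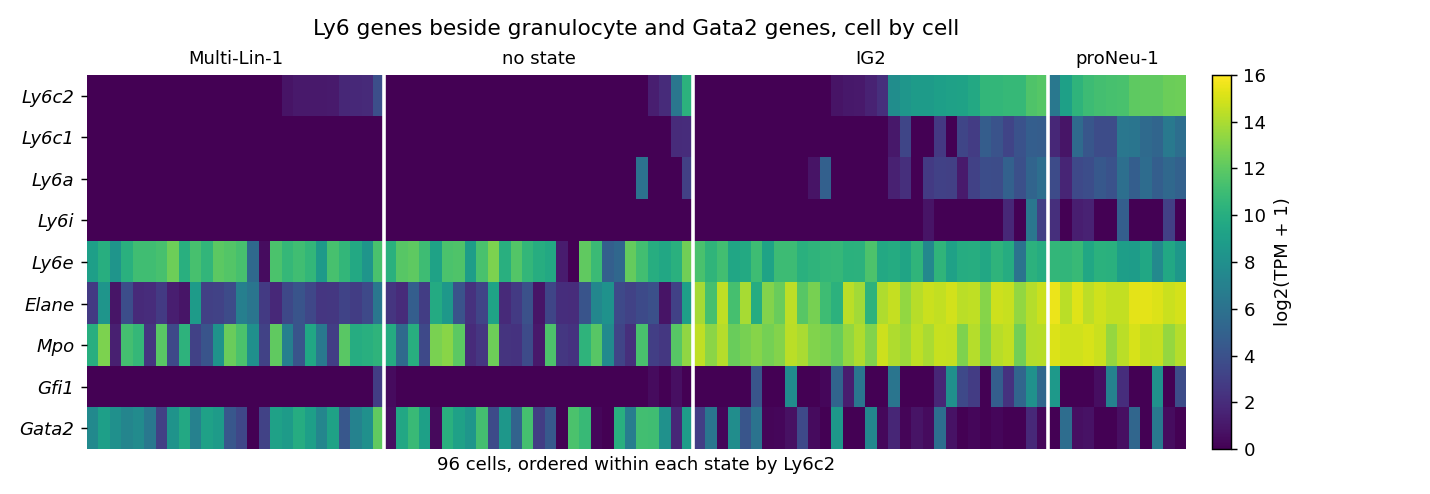
Log2(TPM + 1) of the Ly6 genes and of Elane, Mpo, Gfi1 and Gata2 (rows) in each of the 96 cells (columns), grouped by state and ordered within a state by Ly6c2. Ly6c2 is at 6.39 or more in all of proNeu-1 and in the right of IG2, where most but not all cells also have Ly6c1 and Ly6a, while Ly6e is high in nearly all cells.

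Whether Ly6c1 merely follows Ly6c2 was asked first from the cells that hold each. All 24 cells with Ly6c1 also had Ly6c2, and 0 had Ly6c1 alone. Each of these 24 cells was among the 28 in the upper range of Ly6c2. The 4 upper-range cells without Ly6c1 at a TPM of 1 had Ly6c2 at 8.76, 8.81, 9.06 and 9.14, below the median of that range, 10.62, but the 4 cells with the lowest Ly6c2 of the range, at 6.37, 6.39, 7.86 and 8.40, all had Ly6c1. The level of Ly6c1 had a median of 0.972% of that of Ly6c2 in TPM, from 0.241 to 3.53%, with an SD of 1.02 in the log2 ratio (24 cells). These ratios come from cells where both genes passed a TPM of 1, so they say nothing of the ratio in the 14 cells of the lower Ly6c2 range. At the median ratio, the highest Ly6c2 of those 14 cells, a TPM of 13.4, would put Ly6c1 at 0.13. That is under the TPM of 1 used as found, so the lower range cannot show whether Ly6c1 is absent there.

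Ly6a was found in nearly the same cells, with 2 exceptions. It was found in 26 of the 28 cells in the upper Ly6c2 range, in 0 of the 14 in the lower range, and in 2 cells with Ly6c2 listed at 0. In the 26 cells with both, Ly6a had a median of 0.825% of the level of Ly6c2 in TPM, from 0.205 to 13.9%, with an SD of 1.07 in the log2 ratio. The ratios of Ly6a and Ly6c1 to Ly6c2 had medians and SDs close to each other, but their highest values were 13.9 and 3.53%. Both sets of ratios come only from cells where the 2 genes passed a TPM of 1. At the median ratio, the highest Ly6c2 of the lower range, a TPM of 13.4, would put Ly6a at 0.11. The 0 of 14 therefore cannot show whether Ly6a is absent at low Ly6c2. The coding sequences of Ly6a and Ly6c1 are 81.7 and 97.7% identical to Ly6c2, and the part of this in the ratios was not tested. Ly6i, a further Ly6 gene of the same cluster, was found in 8 cells, all with Ly6c2, at a median of 0.173% of its level.

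Across the 96 cells the Spearman rho was 0.827 between Ly6c1 and Ly6c2, 0.753 between Ly6a and Ly6c2 and 0.861 between Ly6a and Ly6c1. These are descriptions over cells that share 1 sample, and each cell's genes share its depth, with which the rho of Ly6a, Ly6c1 and Ly6c2 was 0.523, 0.510 and 0.486. With the number of genes found and the label number (078 or 079, 48 cells each, meaning not given) held constant, the 3 values became 0.774, 0.672 and 0.811. Within IG2 alone (31 cells) they were 0.827, 0.772 and 0.801, and within proNeu-1 (12 cells) 0.734, 0.818 and 0.783. In the cells where both genes were found, rho was 0.855 for Ly6c1 with Ly6c2 (24 cells) and 0.859 for Ly6a with Ly6c2 (26 cells). With a straight-line fit on the ranks of Ly6c2 removed, Ly6a and Ly6c1 had a rho of 0.645 over all cells and 0.575 within IG2. Such a fit does not remove a step. Ly6a and Ly6c1 were found in 26 and 24 of the 28 cells of the upper Ly6c2 range and in 0 of the 14 below it. These 2 values therefore cannot show a link between Ly6a and Ly6c1 apart from Ly6c2.

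**Figure D4:**
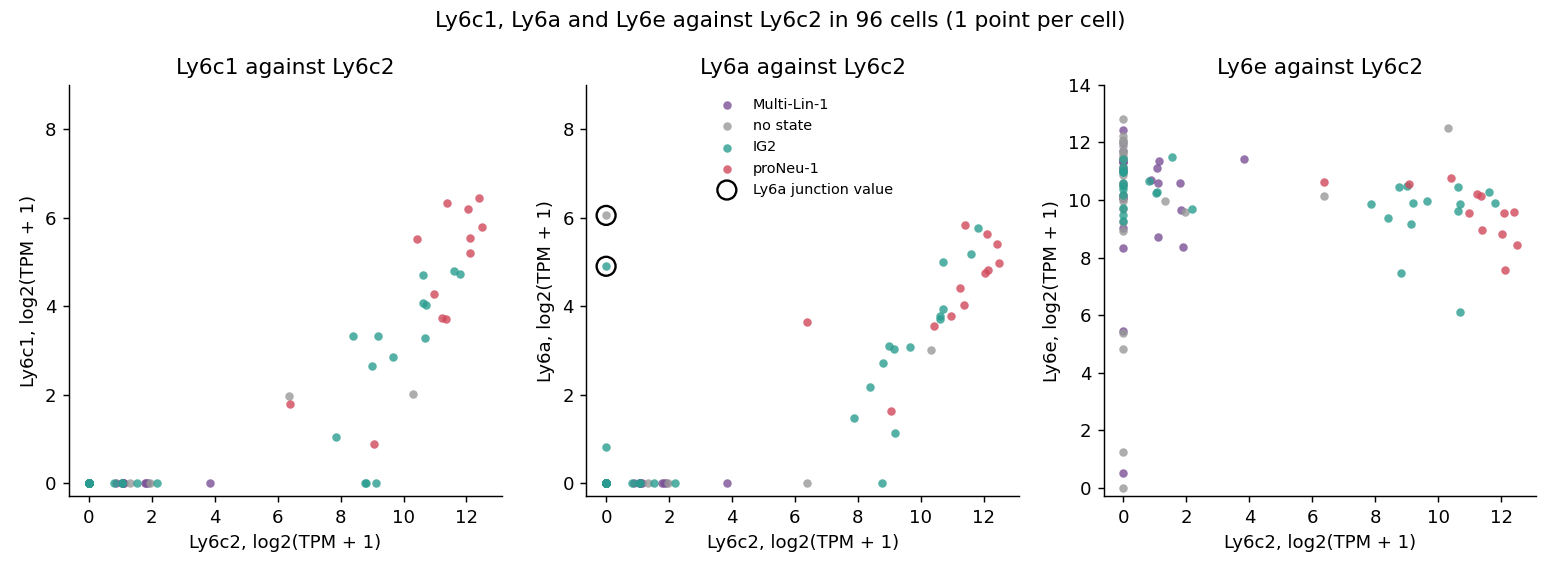
Ly6c1, Ly6a and Ly6e (y axes) against Ly6c2 (x axis), all as log2(TPM + 1), with 1 point per cell coloured by state and circles around the 2 cells that have a Ly6a splice junction value. From a Ly6c2 of 6.37 up most cells have Ly6c1 and Ly6a, the 2 circled cells have Ly6a at 4.90 and 6.05 with Ly6c2 at 0, and Ly6e is high with and without Ly6c2.

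The splicing table gives a second reading from the same libraries, as percent spliced in (PSI), the fraction from 0 to 1 of the reads over competing junctions that use a given one. Ly6a had 6 events in it, with a value in 2 cells only. Those were the 2 cells with Ly6a and no Ly6c2. Among the 26 cells with both genes, 0 had a value, although 7 of them had Ly6a at least as high as the lower of the 2, at 4.90. The number of reads a PSI value needs is not given in the sources used here, and whether the Ly6a level in cells with Ly6c2 came from reads of its own was not tested.

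The 2 cells with a Ly6a junction were different cells. The first had no state and carried Ly6a at 6.05, Ly6e at 11.14, Gata2 (a factor of stem, mast and erythroid cells) at 11.18 and Mpo at 11.38 on the log2(TPM + 1) scale. All 6 mast and basophil markers were found in it, and their summed level of 65.3 was 2nd of the 96 cells. The neutrophil markers Ngp and Mmp8 were found in it too, and the summed level of that list, 13.8, was 8th. The second was an IG2 cell with Ly6a at 4.90, Ly6e at 10.58, Elane at 11.05 and Cd34 at 9.61. The monocyte markers Ccr2 and Ms4a6c were found in it, with a summed level of 14.8 for that list, 4th of the 96 cells. So was the neutrophil marker S100a8. Of the stem and multipotent markers, 0 of 7 were found in the first and 1 of 7 in the second, and of the interferon response genes 7 of 30 in each. Pecam1, which endothelium and progenitors share, was at 6.47 in the second and was found in 30 of the 96 cells, while Cdh5 was at 0 in all of them.

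Ly6c1 had 10 events, with a value in 26 cells, all in the upper Ly6c2 range. The junction of its exons 3 and 4 had a median PSI of 1 in those 26 cells, of which 23 had Ly6c1 at a TPM of 1 or more and 3 did not. The bases on both sides of that junction are the ones identical in Ly6c2 for 122 and 66 bases. The junction of exons 2 and 3, where the genes differ 6 bases before the join, was measured in 5 cells, all with Ly6c1, at a PSI from 0.0625 to 1. Its competing junction joined Ly6c1 exon 1 to an exon of Ly6a. That of exons 3 and 4 joined Ly6c1 exon 3 to an exon of Ly6i. The junctions from Ly6c1 exon 1 to its own exon 2 had a value in 2 cells, at 0 in both. Whether the Ly6c1 level came from reads of its own was not tested. Ly6c2 had 6 events with values in 27 cells. A junction from Ly6c2 exon 2 to Ly6c1 exon 3, which would join the genes, was at 0 in 24 of 27 cells and at most 5.24e-04, and one from Ly6c2 exon 3 to Ly6c1 exon 4 was at 0 in all 26.

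A pair of acceptors of Ly6c2 exon 2 were used, at chr15:75111680 and chr15:75111695, ahead of its start codon. The first had a median PSI of 0.689, from 0.0597 to 1, and the second one of 0.0178, from 0 to 0.5, in 27 cells. In Ly6e, acceptors 3 bases apart at chr15:74957777 and chr15:74957780 were both used, also ahead of the start codon, with mean PSI of 0.657 ± 0.284 and 0.312 ± 0.286 (SD over 87 cells, not over replicates). For the first acceptor the lowest, median and highest PSI were 0.0293, 0.725 and 1 in Multi-Lin-1 (24 cells), 0.00758, 0.681 and 1 in IG2 (30 cells), 0.331, 0.915 and 1 in proNeu-1 (11 cells) and 0, 0.659 and 1 in cells without a state (22 cells). The ranges overlapped across all 4 groups, and with the junction depth unknown a PSI of 0 or 1 may rest on few reads.

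**Figure D5:**
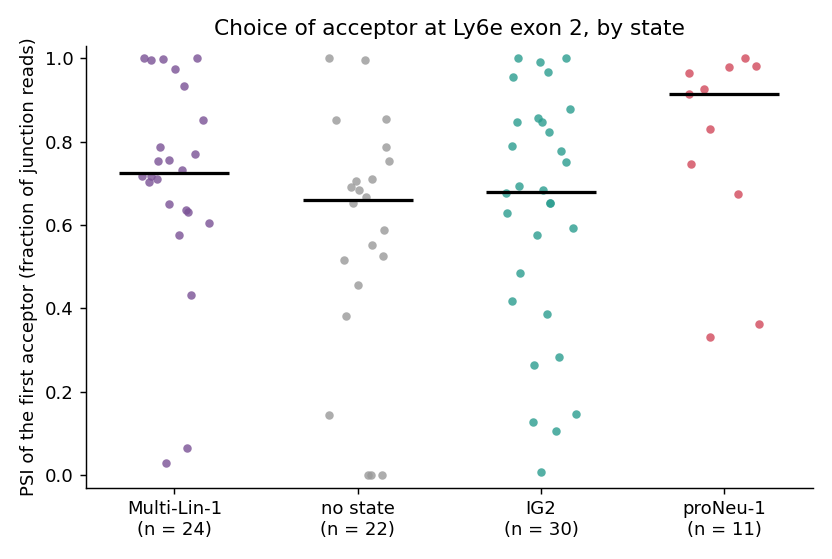
PSI of the first of the Ly6e exon 2 acceptors (y axis, fraction of junction reads) in each cell with a value (points), by state, with the median as a black line. Values spread from 0 or near 0 to 1 in all groups but proNeu-1, where the lowest is 0.331.

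The Spearman rho of Ly6e over the 96 cells was -0.317 with Ly6c2, -0.273 with Ly6a and -0.284 with Ly6c1. The value differed between sets of cells: with Ly6c2, rho was -0.523 among the 48 cells numbered 078 and -0.139 among the 48 numbered 079, and Pearson's r was -0.071 over all. Within proNeu-1 (12 cells) the rho of Ly6e was -0.769 with Ly6c2, -0.664 with Ly6a and -0.531 with Ly6c1. With Ly6c2 it was -0.426 within IG2, -0.088 within Multi-Lin-1 and 0.013 among cells without a state.

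Genes most like each member were named by their rho over the 96 cells. At a rho of 0.4 or more, Ly6a had 169 of 8043 other genes (2.1%), Ly6c1 167 (2.08%), Ly6c2 138 (1.72%) and Ly6e 6 (0.0746%). At a rho of -0.4 or less, Ly6a had 16 (0.199%), Ly6c1 13 (0.162%), Ly6c2 11 (0.137%) and Ly6e 1 (0.0124%). Apart from each other, the highest for Ly6a were Elane at 0.694, Gpc1 (a GPI-anchored proteoglycan) at 0.689 and Cldn15 (a claudin) at 0.674. For Ly6c1 they were Cldn15 at 0.697, Elane at 0.654 and Clec12a (an inhibitory lectin receptor of myeloid cells) at 0.654. For Ly6c2 they were Cldn15 at 0.682, Ms4a3 (a marker of granulocyte-monocyte progenitors) at 0.648 and Elane at 0.642. Within IG2, in the same order, rho was 0.457, 0.435 and 0.418 with Ly6a and 0.462, 0.404 and 0.435 with Ly6c1. With Ly6c2 it was 0.564, 0.593 and 0.588. Within proNeu-1 (12 cells) the values were 0.112, 0.727 and -0.238 with Ly6a and -0.112, 0.133 and 0.042 with Ly6c1. With Ly6c2 they were -0.259, 0.210 and 0.105, so most of these likenesses did not hold within proNeu-1. Of the genes at 0.4 or more, Ly6a and Ly6c2 had 99 in common, 58.9% of those of Ly6a and 72.3% of those of Ly6c2, leaving out the pair itself. Ly6c1 and Ly6c2 had 111 in common, 66.9 and 81.02% of each. With the number of genes found and the label number held constant, the counts were 30 for Ly6a, 37 for Ly6c1 and 30 for Ly6c2.

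Ly6e had 0 of its 6 genes in common with those of the other 3. Its highest were Cpa3 (the mast cell carboxypeptidase) at 0.481, Ptprs (a receptor phosphatase) at 0.445, Csrp3 at 0.443, Hdac7 (a histone deacetylase) at 0.427 and Lmo4 (a LIM-domain cofactor) at 0.416, and it stayed at 6 genes with depth and label number held constant. In the same order, rho was 0.539, 0.279, -0.041, 0.042 and 0.321 within IG2. Within Multi-Lin-1 the values were 0.062, 0.362, 0.444, 0.412 and 0.415, and within proNeu-1 0.156, 0.126, 0.306, 0.266 and -0.189. Gata2 had a rho of 0.375 with Ly6e, and of -0.472 with Ly6a, -0.466 with Ly6c1 and -0.388 with Ly6c2.

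Gfi1, a repressor needed for neutrophil development, had a rho of 0.516 with Ly6c2, 0.489 with Ly6a and 0.478 with Ly6c1, and Gfi1 had also served to choose them. In the cells where both were found, however, rho with Gfi1 was 0.197 for Ly6c2 (18 cells), -0.021 for Ly6a (15 cells) and 0.007 for Ly6c1 (14 cells). Mpo had a rho of 0.605 with Ly6c2, 0.641 with Ly6a and 0.617 with Ly6c1, and Cebpe, a factor of granule maturation, 0.462, 0.352 and 0.438. These signs did not hold in all sets of cells. Within proNeu-1 (12 cells) Mpo had -0.650, -0.587 and -0.392 in the same order. Cebpe had -0.057, -0.326 and -0.223 within IG2, and -0.147 (21 cells), -0.156 (16 cells) and -0.100 (16 cells) where both genes were found. Irf8, the monocyte and dendritic cell factor, was found in 8 cells and had a rho of 0.024 with Ly6c2, 0.085 with Ly6a and 0.064 with Ly6c1.

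The other Ly6 and uPAR family genes were found in few cells. Of 32 listed, 27 had a row in the table and 19 of these were found in 0 cells. Cd59a, which guards cells from complement, was found in 21 cells and Plaur, the urokinase receptor, in 17, and they were the only ones above 10% of cells. Cd59a was lower in proNeu-1 than in IG2 by 1.01 in mean log2(TPM + 1), as 10.2% of all genes were by 1 or more, and neither gene reached a rho of 0.4 in either direction with any member. Of the rest, Ly6i was found in 8 cells, 3 of IG2 and 5 of proNeu-1, Cd59b in 2, and Ly6f, Ly6g5b, Lypd6b and Gml in 1 each.

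Genes of the interferon response were listed because Ly6a and Ly6e are known interferon targets. Of 30 interferon response genes, 18 were found in at least 10% of cells, among them Irf1, Stat2, Oas1a, Ifitm3, Ifi27, Ifi35, Bst2, Gbp7, Xaf1, Psmb8, Psmb9 and B2m. Of these 18, 0 reached a rho of 0.4 in either direction with any of the 4 members, which is near the share of all genes that did so upward, 2.1% for Ly6a, 2.08% for Ly6c1, 1.72% for Ly6c2 and 0.0746% for Ly6e, and the smaller shares downward. With Ly6a their median rho was 0.04 beside 0.11 over all genes, from -0.32 for Xaf1 to 0.27 for Oas1a. With Ly6e it was 0.02 beside -0.02, from -0.22 for Irf1 to 0.21 for B2m. Among them 3 were higher by 1 or more in IG2 than in Multi-Lin-1, Bst2 at 1.07, Psmb8 at 1.16 and Psmb9 at 1.44, beside 31.1% of all genes. From IG2 to proNeu-1, 4 were higher (Irf1, Stat2, Ifi27 and Ifi35) beside 13.6% of all genes, and 3 lower (Ifitm3, Gbp7 and Xaf1) beside 10.2%. Ifit3, Mx1 and Mx2, which interferon induces strongly, were found in 0 cells.

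Of the interferon receptor genes, Ifngr1, a chain of the interferon-gamma receptor, was found in 88 cells and had a rho of 0.54 with Ly6a, 0.53 with Ly6c1 and 0.45 with Ly6c2. Its partner Ifngr2 had 0.10, 0.19 and 0.10. Ifnar1 and Ifnar2, the chains of the interferon-alpha and beta receptor, had 0.20 and 0.03 with Ly6a. Thus 1 of the 4 receptor genes reached 0.4 with Ly6a, Ly6c1 and Ly6c2, beside 2.1, 2.08 and 1.72% of all genes. With the number of genes found and the label number held constant, the rho of Ifngr1 was 0.468, 0.454 and 0.373 in that order. The mean log2(TPM + 1) of Ifngr1 was 4.94 in Multi-Lin-1, 7.83 in IG2 and 9.53 in proNeu-1.

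Genes that build the GPI anchor, which the Ly6 proteins need to stay on the surface, were mostly found in a minority of cells. Of 28 listed, 27 had a row and 20 were found in at least 10% of cells, led by Pigv in 83 cells, Dpm3 in 73 and Pigx in 50. Of the 20, 0 reached a rho of 0.4 with any member, near the 1.72 to 2.1% of all genes for Ly6c2, Ly6c1 and Ly6a and the 0.0746% for Ly6e. The median rho was 0.10 with Ly6a, 0.12 with Ly6c1 and 0.15 with Ly6c2 beside 0.11, 0.10 and 0.10 over all genes. From Multi-Lin-1 to IG2, 7 of them were higher by 1 or more and 0 lower, near the 31.1% and 2.54% of all genes, with a median difference of 0.53, the same as over all genes. From IG2 to proNeu-1, 6 were higher and 3 lower, beside 13.6% and 10.2% of all genes, with a median of 0.35 beside 0.02.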

How the data were processed

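Single-cell RNA was measured in 96 cells of 1 genotype, treated as 1 sample because no animal is named. The authors deposited log2 values, named RSEM TPM in the table, and since 2 to the power of each value minus 1 summed to about 1e+06 in every cell they were read as log2(TPM + 1). They also deposited PSI values, fractions from 0 to 1, for 80855 splicing events. Per the submitters' processing notes, mm9, mm10, STAR, RSEM and Bowtie2 were named, without version or role. The junction coordinates matched GENCODE M21 exon ends on GRCm38. The tables hold 1142 columns and 511 state entries of cells outside the labelled set, left unused here.

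Reads per cell are not given and TPM keeps no depth, so depth is unknown, and genes found per cell stand in for it. Reads are PCR copies without molecular identifiers. A gene was called found in a cell from a TPM of 1 upward, and compared across genes if found in at least 10% of cells. A difference of mean log2(TPM + 1) was called at 1 and a rho at 0.4. Intervals are exact Clopper-Pearson at 95%, also for a count of 0. Doublets were not called, for lack of counts. The genes named were the 4 members, the family and interferon genes found in at least 10% of cells, the 5 highest rho per member with 1 sign in both label numbers, the anchors Gfi1, Elane, Mpo, Cebpe, Irf8 and Gata2, and the 3 GPI anchor genes found most often. Markers and other genes named outside that rule were chosen after their values were seen. Some genes that the rule would name are not reported here.

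The members, lists and markers were chosen with earlier results of these data known. Coding sequences were aligned globally (match 1, mismatch -1, gap opening -5, extension -0.5). Biopython 1.88, matplotlib 3.10.9, SciPy 1.17.1, pandas 2.3.3 and NumPy 2.4.6 under Python 3.11.15 were used. The calls were tested on simulated data drawn from normal distributions, with no added zeros. That check does not cover genes listed at 0 in most cells. Ly6a, Ly6c1 and Ly6c2 were listed at 0 in 67, 71 and 52 of the 96 cells. Other thresholds, pseudocounts, cell sets and correlations were tried, as given in the closing section, and summing Ly6c1 and Ly6c2 was added after seeing the data.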

Additional observations from a re-analysis of the deposited data

How the results depend on the processing

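With 1 sample and no replicate of the genotype, no setting gives a test, and cell counts cover this sample only. No paired analysis was possible because there is 1 group and no result comes from a test. Raising the threshold to a TPM of 30 moved the share of cells with Ly6a to 8.33%, with Ly6c1 to 7.29% and with Ly6c2 to 29.2%, and a TPM of 5 moved Ly6c2 to 30.2%. A pseudocount of 10 moved the Ly6a difference from IG2 to proNeu-1 from 2.77 to 1.13. The rho of Ly6e with Ly6c2, -0.317, moved to -0.071 as Pearson's r, to -0.523 and -0.139 within label numbers 078 and 079, and to -0.426 within IG2. Holding genes found and label number constant moved the genes at a rho of 0.4 or more to 30 for Ly6a, 37 for Ly6c1 and 30 for Ly6c2. The cause of these moves was not tested. Under label number 079 alone the Ly6c1 difference from Multi-Lin-1 to IG2 was 0.84, under the difference of 1 used as a call. For Ly6c2 the difference from Multi-Lin-1 to IG2 was 5.44 under 078 and 2.63 under 079. From IG2 to proNeu-1 it was 4.67 and 8.16. These label number values are among the 90 computed under alternatives that were not counted as moved. All 90 stayed within 1 SD over cells, within 0.1 in rho, within the interval of a share or within 1.5 times of a count. Summing Ly6c1 and Ly6c2, added after seeing the data, left the rho with Ly6a at 0.753. Ly6c1 was listed above 0 in 26.04% of cells and Ly6a in 30.2%.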
